A study of Drosophila melanogaster with 4 samples.

Results

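Regions enriched for H3K36me1 were examined on chromosome 4, on the assembled heterochromatic scaffolds and in the sequence nearest the centromeres of Drosophila melanogaster. They were taken by position alone from the authors' list for the replicate set, called the set list here; each replicate also has a list of its own. The 1st class holds all regions on chromosome 4. The 2nd holds all regions on 2LHet, 2RHet, 3LHet, 3RHet, XHet and YHet. The 3rd holds regions whose midpoint lies in the last 1.5 Mb of 2L, 3L or X, or in the first 1.5 Mb of 2R or 3R. These ends are the sides of each arm nearest its centromere. The classes held 127, 122 and 391 regions, so 640 of the 8051 regions of the list. The other regions were 7371 on the rest of the arms and 40 on the unplaced scaffold U.

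Chromatin came from wild-type embryos of the strain Oregon-R aged 14 to 16 hours, fixed with formaldehyde. Chromatin of 2 samples was immunoprecipitated for H3K36me1, and 2 further samples are inputs, 1 named for each immunoprecipitated replicate. Every group is wild type and from the same stage, so no genotype, treatment or time is compared. Whole embryos were used, so a mark in fewer cells and a weaker mark in each cell cannot be told apart. Whether each replicate had its own embryo collection is not stated, and their spread may therefore be technical only. Positions are those of FlyBase release 5. Read numbers are unknown here, so no read depth stands behind a region.

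H3K36me1 is histone H3 with a single methyl group on lysine 36. In Drosophila, lysine 36 is methylated by Set2, which adds the trimethyl mark over transcribed genes, and by NSD and Ash1, which add lower states. Sequence around the centromeres is mostly constitutive heterochromatin, rich in repeats and bound by the heterochromatin protein HP1a, and a limited number of genes work within it. Chromosome 4 mixes both kinds of chromatin. Its genes are interspersed with repeats, HP1a binds along it, and the protein POF binds its active genes.

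The classes differed in how much sequence was listed as enriched. Chromosome 4 was densely covered, the scaffolds were almost bare except XHet, and the arm ends ran from almost bare on 3L to densely covered on 3R. In the set list, chromosome 4 held 93.9 regions per Mb over 1.35 Mb. The scaffolds held 13.1 per Mb over 9.28 Mb, the arm ends 52.1 per Mb over 7.5 Mb, and the rest of the arms 66.1 per Mb over 111.5 Mb. Regions covered 43.3% of chromosome 4, 2.67% of the scaffolds, 20.5% of the arm ends and 26.5% of the rest of the arms. These values use the full length of each sequence, and how much of it reads could be mapped to was not tested. Sequence without a region is therefore not shown to lack the mark.

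**Figure D1:**
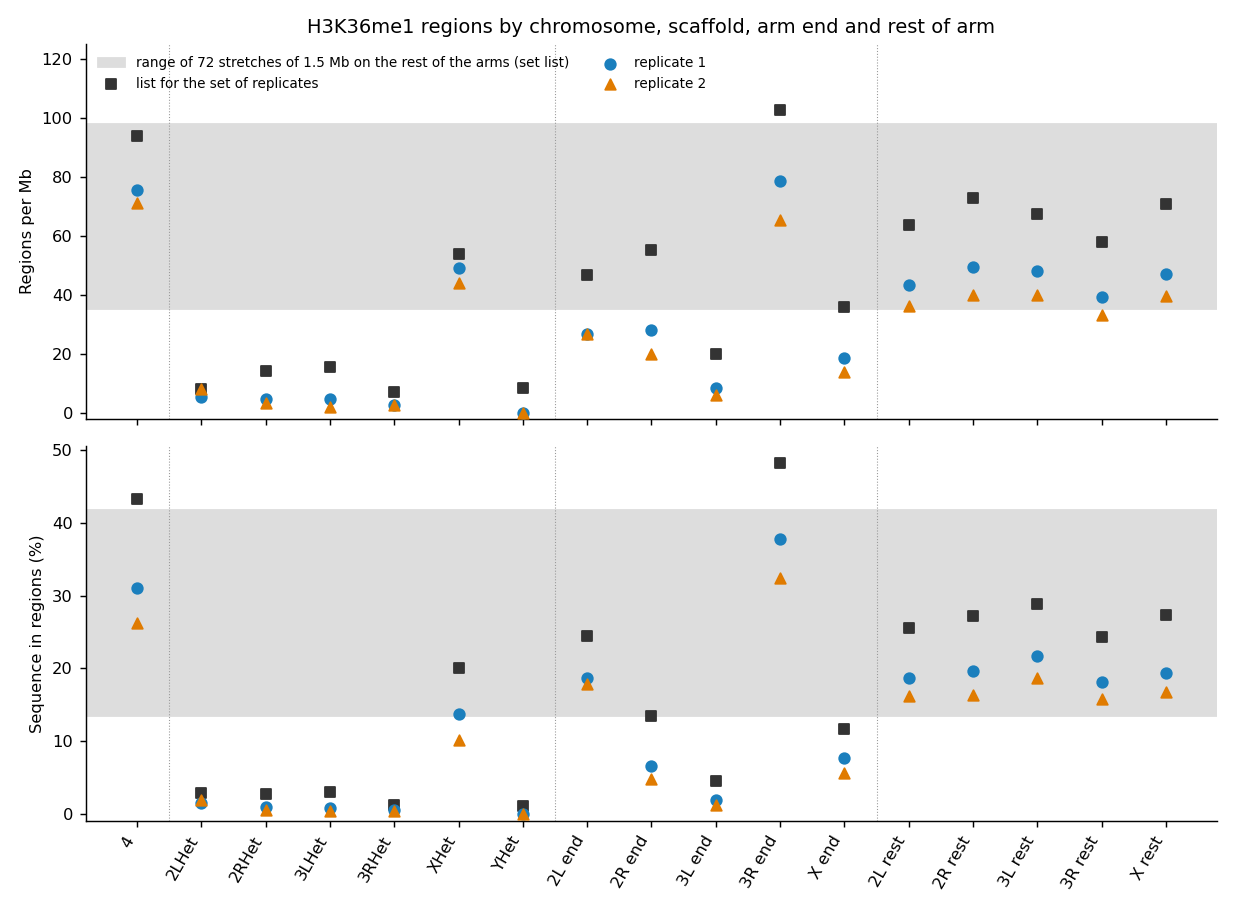
Regions per Mb (upper panel) and percent of sequence in regions (lower panel) for chromosome 4, each scaffold, each 1.5 Mb arm end and the rest of each arm; squares are the set list, circles replicate 1 and triangles replicate 2, and the grey band is the range of 72 stretches of 1.5 Mb on the rest of the arms in the set list. Chromosome 4 (43.3%) and the 3R end (48.2%) lie above the coverage band, and 5 of the 6 scaffolds and the 3L end (4.50%) lie far below it.

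The same order was found in each replicate's own list. Regions per Mb on chromosome 4 numbered 75.5 in replicate 1 and 71.0 in replicate 2, on the scaffolds 5.06 and 3.77, and in the arm ends 32.1 and 26.4. The rest of the arms held 45.2 and 37.6. Set against the rest of the arms of the same list, coverage of chromosome 4 was 1.58 ± 0.0188 times as high (mean ± SD, n = 2). The ratio was 0.0481 ± 0.00854 for the scaffolds and 0.744 ± 0.00498 for the arm ends. Each of these ratios lay farther from 1 than the spread between the replicates. That spread does not measure the one between arms, which lay on both sides of 1. Against the rest of its own arm, coverage of the end ran from 0.0886 times on 3L to 2.09 times on 3R in replicate 1. In replicate 2 it ran from 0.0679 to 2.07 times on the same arms. The smallest two-sided exact p that 2 replicates allow is 0.5, so no test over samples was made.

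On chromosome 4, regions began some way into the sequence and stopped before its end. The first region of the 3 lists started at 61615, 61685 and 61877, and the last one ended at 1277694, 1272326 and 1259922, in the order set list, replicate 1, replicate 2. The stretch of 74.2 kb after it was the longest without a region in the set list, and replicates 1 and 2 had 79.5 kb and 91.9 kb there. Between these limits every 100 kb window held regions in all 3 lists.

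In windows of 100 kb, coverage was highest from 500001 to 600000, at 65.5% in the set list, 60.8% in replicate 1 and 60.4% in replicate 2. The window from 200001 to 300000 followed in the set list, at 62.9%, with 50.4% in replicate 1 and 38.3% in replicate 2. The window from 400001 to 500000 lay between these peaks at 34.6% in the set list, where 15 regions were listed, and at 9.79% and 17.9% in the replicates. Common sequence of both replicates covered 57.2% of the highest window and 6.34% of the window before it.

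**Figure D2:**
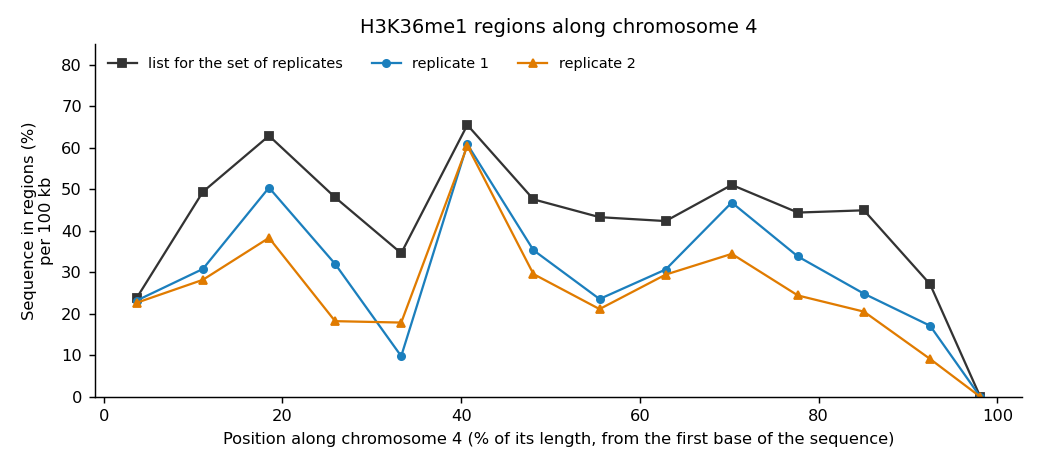
Percent of sequence in regions per 100 kb along chromosome 4, against position as percent of its length, for the set list (squares), replicate 1 (circles) and replicate 2 (triangles). All 3 lines peak in the window that reaches 65.5%, 60.8% and 60.4%, and all end at 0 in the last, shorter window.

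The longest region of chromosome 4 lay from 501302 to 552353 and was 51.1 kb long, with a score of 1.32, the 2nd highest of this chromosome. Replicate 1 divided it into 3 regions that covered 96.6% of it, and replicate 2 into 2 regions that covered 98.0%. The score is the authors' own value per region. Its scale is not stated, so scores are compared within a list only. The region with the highest score, 1.49, was 7.98 kb long, from 90121 to 98100, and each replicate called it as 1 region, with scores of 1.53 and 1.45. A region of 12996 bp from 71786 to 84781 scored 1.30, with 1.37 and 1.31 in the replicates. These lie near the first enriched base of the chromosome. The 4th score, 1.21, belonged to a 6.80 kb region from 1040945 to 1047741, which scored 1.33 and 1.25. The 5th, 1.07, belonged to a region of only 1110 bp, from 930464 to 931573, that overlapped no region of either replicate.

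The next 4 regions by length scored above the chromosome 4 median of 0.43, and below the median of 0.95 for regions of at least 10 kb on the rest of the arms. A 24.9 kb region from 644288 to 669208 scored 0.59, and in its place replicate 1 had 5 regions and replicate 2 had 4, which covered 75.6% and 63.3% of it. A 21.3 kb region from 238964 to 260240 scored 0.61 and matched 5 and 6 replicate regions. The region of 18.6 kb from 980576 to 999128 scored 0.74, and that of 15.8 kb from 270108 to 285942 scored 0.63. In the set list, 13 regions (10.2%) of chromosome 4 were at least 10 kb long, against 532 (7.22%) on the rest of the arms. Of the 13, 4 (30.8%) were matched by a single region in replicate 1, and 4 in replicate 2. On the rest of the arms the shares were 45.1% and 39.7%, so most such regions were divided there too.

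Chromosome 4 regions were therefore compared with others of like length. Among regions of at least 10 kb the median score was 0.61 on chromosome 4 and 0.95 on the rest of the arms. It was 0.56 against 0.69 for 5 to 10 kb, 0.44 against 0.51 for 2 to 5 kb, and 0.38 against 0.40 under 2 kb. In replicate 1 the values for at least 10 kb were 0.82 over 8 regions and 1.13 over 410. In replicate 2 they were 1.33 over 4 regions and 1.21 over 367, so the order was the opposite there. For 5 to 10 kb they were 0.76 against 0.87 in replicate 1 and 0.83 against 0.96 in replicate 2. Over all lengths, the median score of chromosome 4 was lower than that of the rest of the arms by 0.04 in each of the 3 lists (0.43 against 0.46, 0.57 against 0.62 and 0.68 against 0.72). The rest of the arms includes X, where the medians were higher, at 0.52, 0.69 and 0.81. On the rest of 2L, 2R, 3L and 3R they were 0.44 to 0.45, 0.59 to 0.60 and 0.69 to 0.70. Chromosome 4 was thus below these 4 arms too, but by less.

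Region lengths on chromosome 4 were longer than on the rest of the arms in the set list, with a median of 2511 bp against 2042 bp. The quartiles were 1591 and 5623 bp, against 1479 and 3632 bp. In replicate 1 the medians were 2702 and 2220 bp. In replicate 2 they were 2320 and 2274 bp, so a difference in length was not seen in every list. Gaps between neighbours had a median of 2342 bp on chromosome 4 and 2690 bp on the rest of the arms in the set list. The medians were 3935 and 3945 bp in replicate 1, and 5301 and 4826 bp in replicate 2, so the order was not the same in every list.

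In the RefSeq table of release 6, chromosome 4 carries 80 protein-coding genes. They include ci, the transcription factor of Hedgehog signalling, pan, the TCF factor of Wnt signalling, ey and toy, the Pax6 genes of eye development, and zfh2, a homeodomain factor. Since the table and the lists are of different releases, no gene was assigned to a region, and no sequence of a region is shown.

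The heterochromatic scaffolds were covered unevenly. XHet, only 0.204 Mb long, was covered to 20.1% in the set list, 13.7% in replicate 1 and 10.2% in replicate 2. It held 11 regions in the set list and 10 and 9 in the replicates. All of them lay in its first part: the last 119.8 kb, or 58.7% of XHet, held no region in the set list, and 120.7 kb and 120.2 kb were empty in the replicates. The longest XHet region, 9.06 kb from 66551 to 75605, scored 0.89 and was called in both replicates, with scores of 0.96 and 1.05. Another of 6.79 kb, from 22428 to 29218, scored 0.76, and an 8.93 kb region from 50129 to 59059 scored 0.55 (both chosen after their values were seen).

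The other 5 scaffolds together were covered to 2.28% in the set list, 0.767% in replicate 1 and 0.490% in replicate 2. The set list held 47 regions on 2RHet, 40 on 3LHet, 18 on 3RHet, 3 on 2LHet and 3 on YHet. In replicate 1 the numbers were 16, 12, 7, 2 and 0, and in replicate 2 they were 11, 5, 7, 3 and 0. On 2LHet the longest region was 6.86 kb, from 25698 to 32557, and each replicate had 2 regions there that covered 76.6% and 77.5% of it. On 2RHet a 5.29 kb region from 863094 to 868381 scored 0.45 and was overlapped in both replicates, to 71.0% and 31.4%. The longest regions of 3LHet (4.38 kb, from 2481147 to 2485525) and of 3RHet (2.46 kb, from 1814546 to 1817005) were each overlapped in 1 replicate only. Long stretches were empty: 1152 kb of 2RHet, 914 kb of 3RHet and 798 kb of 3LHet held no region of the set list.

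YHet carries sequence of the Y chromosome, and its 3 set-list regions overlapped no region of either replicate. They were 1001, 1046 and 1558 bp long and lay from 336075, 213716 and 304905 onwards. Their scores were 2.56, 0.71 and 0.55, and the first of these was the highest of all scaffolds.

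The highest scores of the scaffolds came from short regions that overlapped no region of either replicate list. The shortest region of the replicate lists was 1301 bp long, while the set list went down to 1001 bp. A region under 1301 bp can thus be matched only by a longer replicate region. Of the 122 scaffold regions, 39 were under 1301 bp, and 35 of these overlapped neither replicate. On the rest of the arms it was 1187 of 1310, a like share, so this is not particular to the scaffolds. After YHet, the next were 2.45, from 599053 to 600053 on 2RHet (1001 bp), and 1.87, from 3204445 to 3205656 on 2RHet (1212 bp). Of the 7 scaffold regions with a score above 1, 6 overlapped neither replicate, and those 6 had a median length of 1022 bp. On the rest of the arms 18 of 391 such regions (4.60%) overlapped neither, and these were as short, with a median of 1012.5 bp. In the arm ends it was 9 of 26 (34.6%). On chromosome 4 it was 1 of 5. The 1 scaffold region above 1 that was found in both replicates lay on 3RHet from 1766303 to 1768304, with a score of 1.32.

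**Figure D3:**
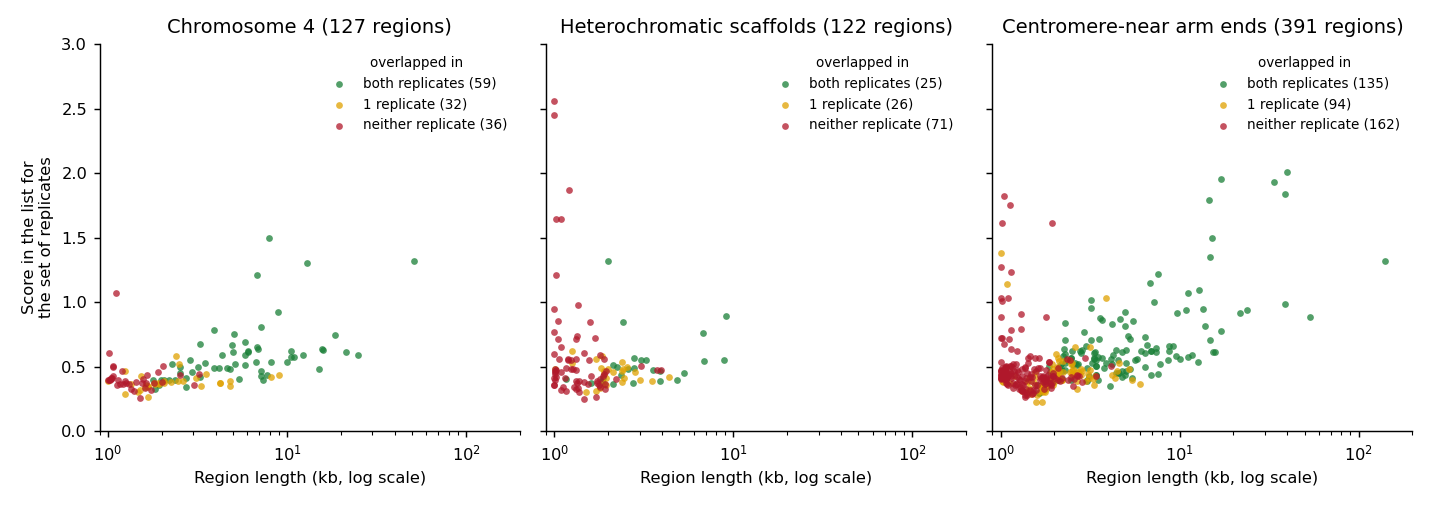
Score in the set list against region length (kb, log scale) for the 127 regions of chromosome 4, the 122 of the heterochromatic scaffolds and the 391 of the centromere-near arm ends; green regions overlap both replicate lists, yellow 1 and red neither. On chromosome 4 and in the arm ends the long, high-scoring regions are green, while on the scaffolds the highest scores belong to short red regions.

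Length and score went together less on the scaffolds. The Spearman correlation across regions was 0.601 on chromosome 4, 0.403 in the arm ends and 0.625 on the rest of the arms, and -0.0821 on the scaffolds (122 regions). In the replicates it was 0.416 (47 regions) and -0.110 (35 regions) on the scaffolds, against 0.803 and 0.792 on the rest of the arms. Regions share libraries and are not replicates, so these values are descriptions. The median scaffold region was 1707 bp long in the set list, 1816 bp in replicate 1 and 1564 bp in replicate 2. No scaffold region reached 10 kb in any list, and 69.7% were under 2 kb in the set list, against 48.5% on the rest of the arms.

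The centromere-near ends of the 5 arms were unlike each other. In the set list, coverage was 48.2% in the 3R end, 24.5% in the 2L end, 13.4% in the 2R end, 11.7% in the X end and 4.50% in the 3L end. The rest of these arms was covered to 24.3%, 25.5%, 27.1%, 27.4% and 28.9% in the same order. In replicate 1 the ends were covered to 37.8%, 18.7%, 6.60%, 7.64% and 1.92%. In replicate 2 they were covered to 32.5%, 17.8%, 4.76%, 5.58% and 1.26%. The 3R end was thus the highest and the 3L end the lowest in all 3 lists, and 2R and X changed places between lists.

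The 3R end was covered more than the rest of its arm, and the 3L, 2R and X ends were covered less, in all 3 lists. Coverage of the 3R end was 1.99 times that of the rest of 3R in the set list, 2.09 times in replicate 1 and 2.07 times in replicate 2. The ratios for 3L were 0.156, 0.0886 and 0.0679, those for 2R 0.495, 0.337 and 0.291, and those for X 0.428, 0.394 and 0.335. On 2L they were 0.961, 1.00 and 1.10, near 1 and on both sides of it. Region density gave the 3R end 103 regions per Mb in the set list, against 58.0 on the rest of 3R, and in every list 3R was the only 1 of 5 arms with more regions per Mb at its end. With the 3R end left out, the other 4 ends held 39.5 regions per Mb and were covered to 13.5%, 0.510 times the rest of the arms, and to 0.448 and 0.440 times in the replicates.

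The ends were also set beside 72 stretches of 1.5 Mb on the rest of the arms. In the set list these were covered to between 13.5% and 41.7%, with a median of 26.4%. The 3R end lay above all 72, and the 2R, 3L and X ends lay below all 72, in the set list and in each replicate. The 2L end had 26 of the 72 stretches below it in the set list, 30 in replicate 1 and 42 in replicate 2. Chromosome 4 had 72 below it in the set list, 71 in replicate 1 and 69 in replicate 2. Stretches of 1 genome are not independent, and their order is given as a description of these lists.

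**Figure D4:**
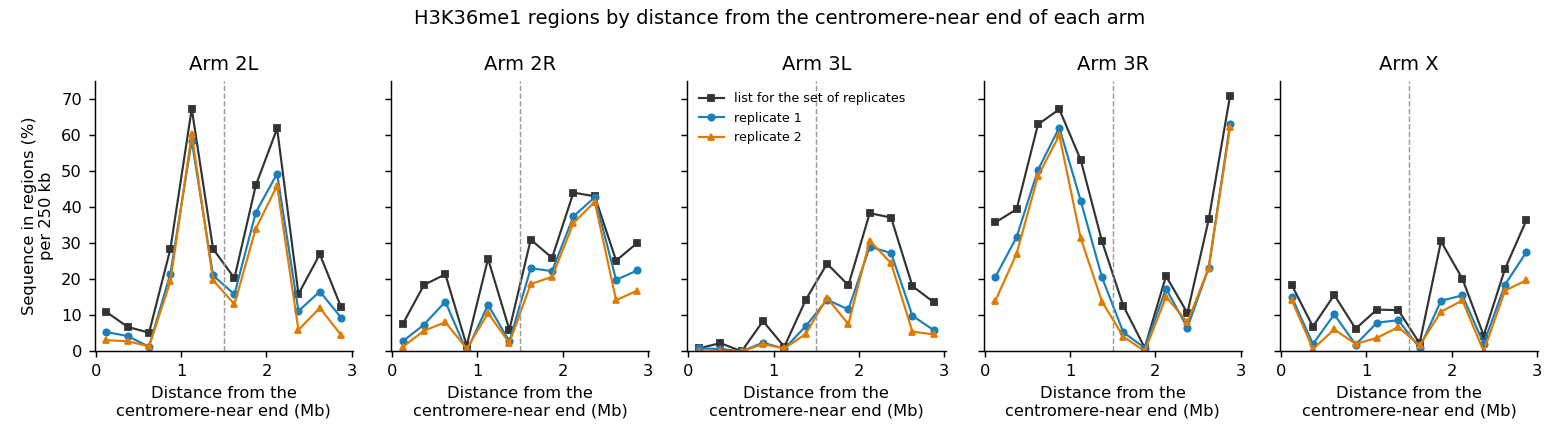
Percent of sequence in regions per 250 kb against distance (Mb) from the centromere-near end of each arm, up to 3 Mb, for the set list (squares), replicate 1 (circles) and replicate 2 (triangles); the dashed line is the 1.5 Mb limit. In the set list the 3R line stands between 35.8% and 67.2% over the first 1.25 Mb, where the 3L line stays under 9%.

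Along the ends, coverage did not follow distance in the same way. On 3L it was 0.82% in the 250 kb nearest the centromere in the set list, 0 in the third such bin and 14.3% in the last one within 1.5 Mb. A stretch of 466.8 kb of the 3L end, from 23733172 to 24199985, held no region in the set list. On 2L the first 3 bins were covered to 10.9%, 6.77% and 5.16%, and the fifth to 67.3%. On 3R the bins ran 35.8%, 39.4%, 63.0%, 67.2%, 53.2% and 30.5% in the set list. The nearest 3R bin was lower in the replicates, at 20.6% and 14.0%, while the fourth held 62.1% and 59.9%. On X the nearest bin was the highest of its end, at 18.5% in the set list, 15.2% in replicate 1 and 14.3% in replicate 2. All 5 arms together were covered to 14.7% in the nearest 250 kb and to 31.8% between 1 and 1.25 Mb.

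Single broad regions carried much of some ends. On 2L, 1 region of 140.8 kb from 21772804 to 21913586 scored 1.32 and held 38.3% of the covered sequence of that end. Each replicate had 2 regions within it, with longest pieces of 136.9 kb and 136.7 kb. Without it, the 2L end was covered to 15.1% in the set list, 9.52% in replicate 1 and 8.66% in replicate 2. The longest region of the X end, 38.9 kb from 22226621 to 22265479, scored 0.99 and lay 0.177 Mb from the end of the sequence. It was 1 region of 35.9 kb in replicate 1, and 2 regions covered 87.7% of it in replicate 2. The 2R and 3L ends had no region of 10 kb or more. Their longest were 7.73 kb, from 588374 to 596100 on 2R, and 6.94 kb, from 23134735 to 23141673 on 3L, both overlapped in both replicates.

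The 3R end held 16 regions of at least 10 kb, of the 25 in all ends, and no single region dominated it. Its longest was 53.8 kb, from 651684 to 705466, with a score of 0.89, and replicate 1 had 5 regions and replicate 2 had 9 in its place. A group of 5 regions from 796510 to 953242 (chosen after its values were seen) covered 92.1% of 156.7 kb. They were 33.9, 38.7, 17.04, 14.7 and 40.0 kb long. Their scores were 1.93, 1.83, 1.95, 1.79 and 2.00 in the set list. In replicate 1 they were 1.93, 1.83, 1.97, 1.77 and 1.99, and in replicate 2 they were 1.94, 1.85, 1.90, 1.74 and 2.01. The last of them, from 913222 to 953242, had the highest score of all arm ends in the set list and in replicate 1. In replicate 2 the highest, 2.46, belonged to another region of the 3R end. Each of the 5 was called as 1 region in each replicate.

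Short regions without replicate support were the top scores of 3 other ends. On 2L a 1045 bp region from 21546212 to 21547256 scored 1.82, on 3L a 1016 bp region from 23689873 to 23690888 scored 1.61, and on 2R a 1004 bp region from 537866 to 538869 scored 1.27. None of these overlapped a replicate region, and all 3 were shorter than the shortest region of the replicate lists, 1301 bp. On X a 3.86 kb region from 21923457 to 21927318 scored 1.03 and was overlapped in replicate 1 only.

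Lengths and scores were also compared with the rest of the arms. The median length of regions in the arm ends was 1970 bp against 2042 bp in the set list, 2122 against 2220 bp in replicate 1 and 2152 against 2274 bp in replicate 2. The median score was 0.46 against 0.46, 0.59 against 0.62 and 0.69 against 0.72. Compared within each arm, where the differences in the set list ran from -0.025 on 3L to 0.016 on 3R, the median score of the end was lower than that of the rest of its arm on 4 of 5 arms in the set list. In replicate 1 it was lower on all 5 arms and in replicate 2 on 4 of 5, with 3R the exception in the set list and in replicate 2. The differences were larger in the replicates for 3L, at -0.054 and -0.086, and for X, at -0.061 and -0.070. The median length of the 3L end was below that of the rest of 3L in every list, at 1893 against 2054 bp in the set list, and in the replicates at 1777 against 2258 bp and 1885 against 2228 bp.

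Support in the replicates followed region length, in part by construction. A longer region has more bases with which to meet a replicate region, and no replicate region was shorter than 1301 bp. On the rest of the arms, 1187 of the 1310 regions under 1301 bp overlapped neither replicate. Of all 8051 regions of the set list, 38.8% overlapped both replicate lists by at least 1 bp and 36.9% overlapped neither. On chromosome 4, 59 of 127 regions (46.5%, 95% Wilson interval 38.0 to 55.1) overlapped both, and 36 (28.3%) neither. On the scaffolds 25 of 122 (20.5%, 14.3 to 28.5) overlapped both, and 71 (58.2%) neither. In the arm ends 135 of 391 (34.5%, 30.0 to 39.4) overlapped both, and 162 (41.4%) neither. On the rest of the arms the shares were 39.4% (38.2 to 40.5) and 36.2%. The intervals cover counting error only, and neighbouring regions are not independent.

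Within a class of length, the shares lay closer together than over all lengths. Of regions of 2 to 5 kb, 55% overlapped both replicates on chromosome 4, 50% on the scaffolds, 52.6% in the arm ends and 59.4% on the rest of the arms. Under 2 kb the shares were 7.69%, 4.71%, 4.52% and 5.09%. All regions of 10 kb or more in the list overlapped both replicates in every class that has them. For 2 to 5 kb each class share was below that of the rest of the arms (interval 57.5 to 61.3). The class intervals were wide: 39.8 to 69.3 over 40 regions, 33.6 to 66.4 over 32 and 44.2 to 60.9 over 133. Their overlap with that of the rest of the arms therefore cannot show that the shares are alike. A calculation added after the values were seen used the rates of the rest of the arms in each class of length. It gave an overlap with both replicates of 47.6% on chromosome 4, 23.0% on the scaffolds and 37.5% in the arm ends. The observed 46.5%, 20.5% and 34.5% lay within 3 percentage points of these values. For overlap with neither, the scaffolds stood at 58.2% against 49.6% in this calculation. Under 2 kb their share was 78.8% (69.0 to 86.2) against 67.5% on the rest of the arms. Lengths differ even there: 39 of the 85 scaffold regions under 2 kb were shorter than 1301 bp, against 1310 of 3575 on the rest of the arms. The calculation does not remove this difference.

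**Figure D5:**
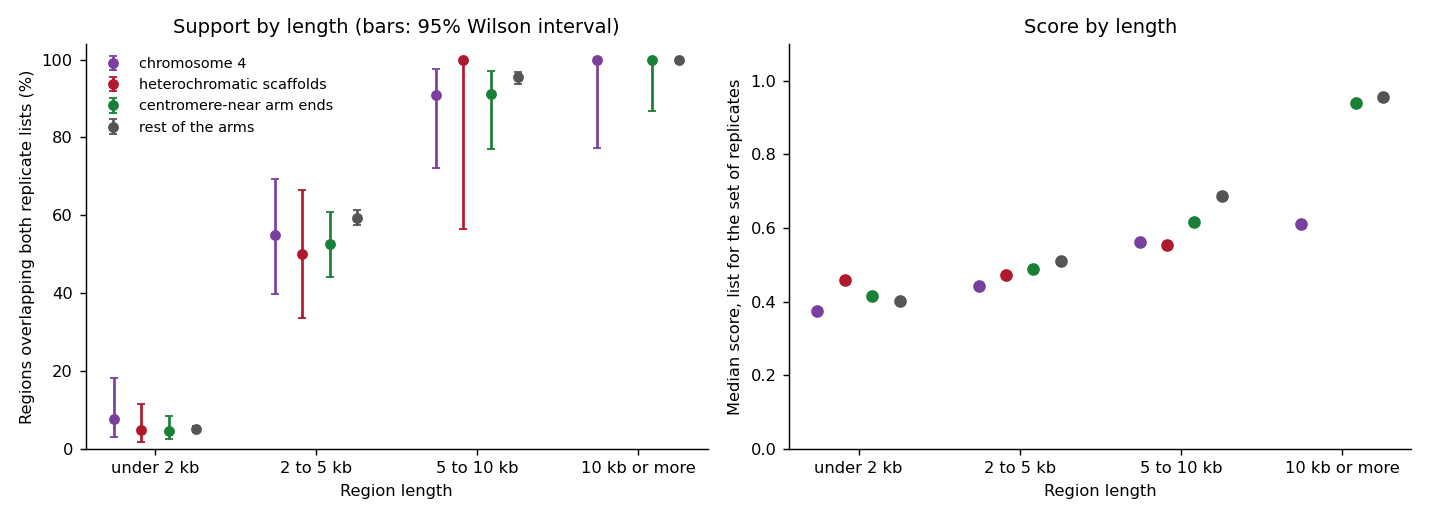
Left, percent of regions of the set list that overlap both replicate lists, by region length, with 95% Wilson intervals; right, median score by region length; colours are the 3 classes and the rest of the arms. Support is 4.52% to 7.69% under 2 kb and higher in each longer class; at 10 kb or more, where the scaffolds have no region, it is 100%, and the median score is 0.61 on chromosome 4, 0.94 in the arm ends and 0.95 on the rest of the arms.

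Support also differed between units. In the 3R end 67 of 154 regions (43.5%) overlapped both replicates, near the 40.6% of the rest of 3R. The shares were 5 of 30 (16.7%) in the 3L end, 24 of 83 (28.9%) in the 2R end, 17 of 54 (31.5%) in the X end and 22 of 70 (31.4%) in the 2L end. On the rest of 3L, 2R, X and 2L they were 40.0%, 39.0%, 37.9% and 39.2%. On XHet 6 of 11 regions overlapped both, against 19 of 111 (17.1%) on the other 5 scaffolds. These shares are not adjusted for length. Regions of 5 kb or more numbered 34 in the 3R end, 3 in the 3L end, 5 in the 2R end, 4 in the X end and 13 in the 2L end. Measured by length, the sequence shared by the replicates was 0.615 of that in either list on chromosome 4, 0.369 on the scaffolds, 0.696 in the arm ends and 0.703 on the rest of the arms. Among the ends it was 0.782 for 2L, 0.729 for 3R, 0.658 for X, 0.421 for 2R and 0.411 for 3L. On 2L, 1 stretch held 135992 of the 239862 bp shared, and the value without it was not computed.

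The limit of 1.5 Mb passed between the following regions. Just inside lay regions with midpoints 35.2 kb from the limit on 2L (score 1.82), 90.8 kb on 2R (0.43), 33.2 kb on 3L (0.71), 1.96 kb on 3R (0.87) and 13.8 kb on X (0.91). Just outside lay regions 31.4 kb from it on 2L (0.90), 35.7 kb on 2R (0.93), 18.1 kb on 3L (0.42), 2.31 kb on 3R (0.39) and 5.13 kb on X (0.70). Outside the 3R limit, coverage was 12.6% in the next 250 kb of the set list and 0.985% in the one after, and then 20.9%.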

How the data were processed

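Bowtie 0.12.7 is the mapper named in the submitters' processing notes. Per the file headers, the deposited lists hold regions of significant enrichment on FlyBase release 5, with 1 score per region. Not given in the sources used here are the calling program, its threshold, the score's scale and how the set list joins both replicates. The inputs have no list, and the depth is unknown.

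Regions were placed in classes by midpoint, with sequence lengths from the file headers. Density is regions per Mb, and coverage is the share of bases in regions. Support means an overlap of at least 1 bp with a region of a replicate list, and shares have 95% Wilson intervals. Named regions were, by rule, the 5 longest and 5 highest-scoring of chromosome 4, the longest of each scaffold, the 3 highest-scoring of all scaffolds, the longest and highest-scoring of each arm end, and those beside the 1.5 Mb limit. Members, rules and lists were chosen with earlier results of these data known. No test over samples was made. Alternatives were merging of regions less than 1000 bp apart, the higher-scoring 50%, single replicates, a reciprocal overlap of 50%, ends of 1.0 and 2.0 Mb, arms or XHet left out and, for scores, a minimum length of 1301 bp. The code was tested on simulated lists. Computations ran in Python 3.11.15 with pandas 2.3.3, NumPy 2.4.6 and SciPy 1.17.1, and plots in matplotlib 3.10.9.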

Additional observations from a re-analysis of the deposited data

Results flagged for a closer look

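The unplaced scaffold U, which entered no comparison, held 40 regions of the set list, 6 of replicate 1 and 3 of replicate 2. Their median score in the set list was 1.38, above that of every class compared here, and the highest was 3.45. Of the 40 regions, 33 overlapped neither replicate list, and the median length was 1121 bp. In the whole set list 36.9% overlapped neither. Of regions under 1301 bp on the rest of the arms, 1187 of 1310 did, and U was not compared at like length. The regions on U were flagged because they lie outside the sequence that the comparisons use.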

How the results depend on the processing

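Of 68 alternative values, 15 moved by less than their spread, 44 by more and 9 changed sign. The spread was the SD of the 2 replicates for density, length and score, and the 95% Wilson interval for support. The spread of 2 replicates is a narrow measure, so many moves are small; except where given, the cause was not tested. Density relative to the rest of the arms was 1.42 for chromosome 4, 0.199 for the scaffolds and 0.789 for the arm ends, and kept its side of 1 in every setting. It was 1.67 to 1.89, 0.100 to 0.112 and 0.703 to 0.711 in single replicates. With the higher-scoring 50% it was 1.14 for chromosome 4 and 0.767 for the ends. With merging it was 0.225 for the scaffolds and 0.827 for the ends, and without XHet 0.185. Ends of 1.0 and 2.0 Mb gave 0.718 and 0.815. Leaving out 3R gave 0.598 and leaving out 3L 0.910.

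Median lengths minus the rest of the arms were 469 bp, -335.5 bp and -72 bp. Merging gave 1482, -683 and -25 bp, and the higher-scoring 50% gave 2490, -1787 and -527.5 bp. Single replicates gave 46 to 481.5, -710 to -404 and -122.5 to -98 bp. Ends without 3R gave -127 bp, and without 2L the sign changed, to 32 bp.

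Median scores minus the rest of the arms were -0.04, 0.0032 and -0.0042. For chromosome 4 the higher-scoring 50% gave 0.0086, single replicates gave -0.0443 to -0.0441, and regions of at least 1301 bp gave -0.0405. For the scaffolds every alternative changed the sign: -0.028 with the higher-scoring 50%, -0.085 to -0.059 in single replicates, -0.022 from 1301 bp and -0.0038 without XHet, so no direction is given for the set list. For the ends, single replicates gave -0.030 to -0.026 and regions from 1301 bp -0.011. Ends of 1.0 Mb gave 0.0055, leaving out 2L gave 0.0030 and leaving out X gave -0.0135.

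Support in both replicates was 46.5%, 20.5% and 34.5%, against 39.4% on the rest of the arms. The alternatives for support were computed for the 3 classes only. Without the share of the rest of the arms beside them, they do not show what is particular to a class. A reciprocal overlap of 50% lowered it to 27.6%, 11.5% and 23.8%, a stricter rule by construction. Overlap with replicate 2, whether or not replicate 1 also overlapped, was 56.7%, 25.4% and 40.7%. Overlap with replicate 1, counted in the same way, was 61.4%, 36.9% and 52.4%. The higher-scoring 50% gave 84.3% for chromosome 4, 23.8% for the scaffolds and 56.8% for the ends, and ends without 3R gave 28.7%. No paired analysis was possible because lists exist for 1 group alone, the immunoprecipitated replicates. Unknown read depth limits what the short regions can show.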
